A study of Mus musculus with 36 samples.

Results

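The genes described here are 10 transcripts that kidney tubules are known to raise when they are damaged: Havcr1, Lcn2, Gdf15, Clu, Spp1, Cd44, Sox9, Vcam1, Anxa2 and Lgals3. They were chosen by gene symbol, and all 10 are among the 18049 genes of the deposited count table. When tubule epithelium is stressed it loses part of its transport programme, secretes signalling proteins and changes its surface molecules. Some of these products reach urine or plasma, which is why Havcr1 (kidney injury molecule 1) and Lcn2 (neutrophil gelatinase-associated lipocalin) are followed as injury markers. Several of the others, such as Spp1, Cd44, Vcam1 and Lgals3, are also made by leukocytes or vessels, and Sox9 is a transcription factor of developing nephrons that adult tubules switch on again during repair.

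Whole kidneys were taken from C57BL/6 pups on postnatal day 0, 3 or 12 (here P0, P3 and P12) and their RNA was sequenced. The 4 genotypes were WT, Pkd1-RC/RC (homozygous for a hypomorphic allele of the gene of dominant polycystic kidney disease), Pkhd1-/- (lacking a working copy of the gene of recessive polycystic kidney disease) and Digenic, which carried both homozygous mutations. The labels name no further allele, Cre driver or treatment, and the question set by the design is how the mutations act alone and together. Each of the 12 groups of age and genotype held 3 libraries from 3 separately numbered mice, so p-values measure the spread between mice. In bulk tissue, more cells of a type and more RNA per cell cannot be told apart.

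Total counts ran from 51411240 to 80789299 per library. Levels are given as CPM (counts scaled to library size) after TMM scaling over all 36 libraries, and a change counts as called where edgeR's quasi-likelihood test gave it an adjusted p (Benjamini-Hochberg) below 0.05. Pkhd1 transcript, the check of the Pkhd1-/- mutation, ran from 5.90 to 32.8 CPM in the 18 libraries carrying it. In the other 18 it ran from 61.6 to 249.5 CPM. At P12 Pkd1 transcript ran from 76.9 to 96.3 CPM in WT and from 74.6 to 104.5 CPM in Pkd1-RC/RC libraries. Transcript level therefore did not check the Pkd1-RC/RC mutation. Proximal tubule transcripts, taken as markers of kidney tissue, were all detected (25 of 25 genes). Their summed level was 4900.0 to 10008 CPM at P0 and 10725 to 21815 CPM at P12. For 2 libraries the table's column header disagreed with the sample label: Digenic replicate 1 at P12 was headed as P3, and Pkd1-RC/RC replicate 2 at P12 was headed as Pkhd1. The authors' deposited group means equal the means of the libraries as labelled for 100% of genes in every group, within 0.51 counts. That match shows how the authors grouped the libraries, and not whether label or header is right. Pkhd1 transcript ran from 216.1 to 232.7 CPM in the P12 Pkd1-RC/RC libraries and from 19.1 to 20.3 CPM in the P12 Pkhd1-/- libraries. In digenic libraries it ran from 18.8 to 32.8 CPM at P12 and from 9.97 to 11.3 CPM at P3. Sox9 ran from 4.72 to 5.49 CPM in P12 digenic and from 18.6 to 27.9 CPM in P3 digenic libraries. Over 16105 genes, P12 digenic replicate 1 correlated at r = 0.984 with the P12 digenic group and 0.955 with the P3 digenic group. In these values it lay with P12, as labelled. Values without 1 or both of the libraries whose header disagreed are given for some of the results that rest on them. Summed adrenal transcripts exceeded 10 times the median in 2 libraries, Pkd1-RC/RC replicate 1 and Digenic replicate 3 at P3, and 3 libraries carried a sex in the header that differed from their sex-linked transcripts.

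In GENCODE M21 (build mm10) the 10 are protein-coding genes at chr11:46735080-46779578 (Havcr1), chr2:32384633-32388252 (Lcn2), chr8:70629393-70632456 (Gdf15), chr14:65968483-65981547 (Clu), chr5:104435118-104441050 (Spp1), chr2:102811141-102901665 (Cd44), chr11:112782224-112787760 (Sox9), chr3:116109949-116129688 (Vcam1), chr9:69453620-69491795 (Anxa2) and chr14:47367751-47386160 (Lgals3). Promoter sequence is shown for 4 of the markers that behaved differently from each other: Havcr1, which was called higher in digenic kidneys at every age, Gdf15, which was called higher at P0 and P12, Lcn2, which was called higher only at P12, and Anxa2, which was not called at any age. Each is the 250 bases before a transcription start in RefSeq (build GRCm38.p6), written along the strand of the gene, and capitals mark matches to the motifs searched. Havcr1 has 3 starts in RefSeq and Gdf15 has 2, of which 1 is shown for each. The windows are chr11:46739973-46740222 (plus strand), chr8:70632457-70632706 (minus strand), chr2:32387740-32387989 (minus strand) and chr9:69453433-69453682 (plus strand). Those of Havcr1 and Lcn2 lie inside the GENCODE gene spans given above, and that of Anxa2 reaches into its span. These windows therefore precede a RefSeq start and not the outermost GENCODE start.
Havcr1: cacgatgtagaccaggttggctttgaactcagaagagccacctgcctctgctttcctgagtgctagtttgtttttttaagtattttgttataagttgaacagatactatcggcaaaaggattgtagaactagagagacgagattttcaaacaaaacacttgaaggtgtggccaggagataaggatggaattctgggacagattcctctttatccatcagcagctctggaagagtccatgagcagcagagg
Gdf15: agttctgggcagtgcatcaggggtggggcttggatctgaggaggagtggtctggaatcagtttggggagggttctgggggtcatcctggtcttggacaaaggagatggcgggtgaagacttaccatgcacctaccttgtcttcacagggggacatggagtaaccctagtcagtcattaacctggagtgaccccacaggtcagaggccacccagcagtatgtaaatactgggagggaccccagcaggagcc
Lcn2: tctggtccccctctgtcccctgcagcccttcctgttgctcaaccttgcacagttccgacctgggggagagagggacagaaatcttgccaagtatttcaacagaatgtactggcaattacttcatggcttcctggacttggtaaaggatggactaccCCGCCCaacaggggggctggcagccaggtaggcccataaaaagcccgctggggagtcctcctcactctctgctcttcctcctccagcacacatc
Anxa2: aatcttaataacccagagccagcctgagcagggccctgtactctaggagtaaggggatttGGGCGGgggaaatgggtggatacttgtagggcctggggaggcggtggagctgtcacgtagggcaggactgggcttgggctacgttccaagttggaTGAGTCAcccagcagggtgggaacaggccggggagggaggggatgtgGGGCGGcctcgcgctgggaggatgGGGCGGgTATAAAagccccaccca

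Of the 10 markers, 7 had a promoter in the table (all but Clu, Sox9 and Vcam1). Both strands were searched for AP-1 (TGANTCA), CREB (TGACGTCA), NF-kB (GGG and TTTCC parted by any 2 bases), TEAD (CATTCC), the TATA box (TATAAA), the GC box (GGGCGG), STAT (TTCNNNGAA) and ATF-C/EBP (TGATGNAA) letters, and no 2 of the matches overlapped. The Anxa2 window held an AP-1 match, a TATA box and 3 GC boxes, and the Lcn2 window held 1 GC box read on the reverse strand. Of the windows not printed, that of Spp1 held the TATA letters, 211 to 206 bases before the start. The Lgals3 window held a GC box and the Cd44 window no match. The Havcr1 and Gdf15 windows held no match to any of the 8 motifs. Over all 32851 promoters of the same length, 6.75% held the AP-1 letters, 12.37% the TATA letters and 32.74% the GC box letters, and the shares for CREB, NF-kB, TEAD, STAT and ATF-C/EBP were 1.55%, 1.41%, 12.64%, 7.02% and 3.45%.

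The markers differ widely in abundance. Per kilobase of transcript (RPKM, scaled CPM divided by the deposited gene length), the P12 WT kidney held 957 RPKM of Spp1, the matrix phosphoprotein osteopontin, which at P12 is the most abundant of the 10. Clu (68.2 RPKM), Anxa2 (63.6 RPKM) and Lgals3 (33.5 RPKM) followed, and Havcr1 was last at 0.249 RPKM. In P12 digenic kidneys Spp1 was still first at 1671 RPKM, but Lcn2 held rank 3 at 98.4 RPKM, where in WT it held rank 6 at 7.12 RPKM. Raw counts behind these levels ran from 15 for Havcr1 in its lowest library to 244423 for Spp1 in its highest, so counting error matters most for Havcr1, above all in WT and Pkhd1-/- kidneys (26 to 34 counts per Pkhd1-/- library at P12). Spp1 shares 309 exon bases (18.75% of its exon length) with the annotated locus Gm42793 on the same strand, and its counts could include reads of that locus.

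**Figure D1:**
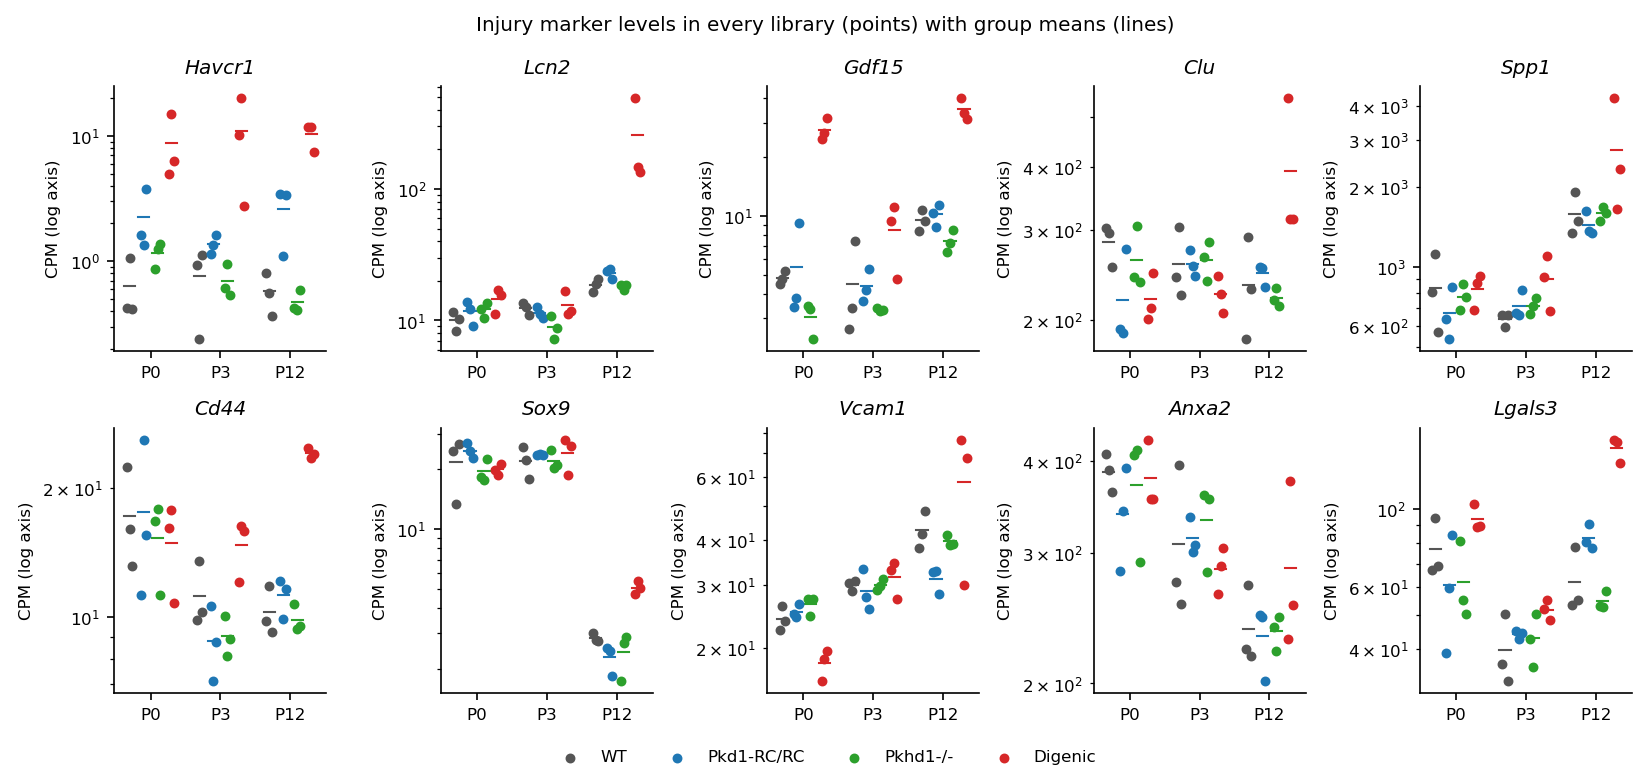
Level of each marker in every library, in CPM on a log axis, against age, coloured by genotype, with a line at each group mean. Digenic libraries stand above the other genotypes in Havcr1 at all 3 ages and in Gdf15 at P0 and P12, while Lcn2, Cd44 and Lgals3 separate at P12.

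The normal course of the markers after birth sets the baseline. Between P0 and P12 in WT kidneys 7 of the 10 changed, where 49.8% of all genes did. Lcn2, Gdf15, Spp1 and Vcam1 rose by 0.90 ± 0.30, 0.98 ± 0.31, 0.92 ± 0.24 and 0.82 ± 0.18 on the log2 scale (± SE). Cd44, the hyaluronan receptor, fell by 0.74, Anxa2, a membrane-binding annexin, fell by 0.70, and Sox9 fell by 2.91. Sox9 went from 13.3 to 26.7 CPM across the P0 WT libraries to 2.76 to 3.02 CPM at P12. Havcr1, Clu and Lgals3 did not pass the test for age, the Lcn2 call was lost without P0 WT replicate 2 (0.77 to 1.01 over all alternatives) and the Cd44 call without P0 WT replicate 1 (-0.90 to -0.51).

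Havcr1, a phosphatidylserine receptor that injured proximal tubule cells display, was already high in digenic kidneys on the day of birth. Its level at P0 was 0.418, 1.05 and 0.417 CPM in the 3 WT libraries and 4.94, 14.9 and 6.31 CPM in the 3 digenic libraries. Every digenic library lay above every WT library, with the second digenic replicate the highest. The log2 change was 3.78 ± 0.55 (13.7-fold; edgeR adjusted p = 0.00896). Without WT replicate 1 or WT replicate 3 the call was lost (adjusted p = 0.0530 and 0.0734), and the log2 change over all libraries left out in turn ran from 3.15 to 4.38.

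Gdf15, a secreted member of the TGF-beta family that is induced by cellular stress, was the other marker called at birth. WT kidneys held 4.48, 4.74 and 5.23 CPM and digenic kidneys 24.6, 26.7 and 31.6 CPM. The groups were far apart and each was tight. On the log2 scale the change was 2.52 ± 0.33 (5.75-fold; edgeR adjusted p = 0.00417), and it was called under all 14 alternatives run, which included leaving out each library. These 2 markers were called higher of 10 at P0, where 0.671% of all genes were called in either direction and 0.466% higher.

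The other 8 markers were not called in digenic against WT at P0 by edgeR, while DESeq2 called Vcam1 lower there (-0.41, adjusted p = 0.0396), as it did against Pkd1-RC/RC (-0.48, adjusted p = 0.0495) and Pkhd1-/- (-0.54, adjusted p = 0.00356). Lcn2 stood at 0.55 ± 0.22 and Lgals3 at 0.30 ± 0.25 on the log2 scale, and Spp1, Cd44, Sox9 and Anxa2 at 0.00, -0.20, -0.11 and -0.02. Clu (201 to 247 CPM in digenic, 254 to 303 in WT) and Vcam1 (16.1 to 19.6 against 22.4 to 26.1) lay below WT without overlap, with log2 changes of -0.36 and -0.41 and adjusted p-values of 0.281 and 0.161 (edgeR). The median change over the 10 was -0.01, beside 0.00 over all genes.

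At P3 Havcr1 was the marker called. Digenic libraries held 10.1, 20.1 and 2.77 CPM and WT libraries 0.926, 0.237 and 1.13 CPM. All digenic libraries again lay above WT, but the third digenic replicate, the library with adrenal transcripts (498 CPM summed over 8 genes against 34.2 and 41.3 CPM in the other 2), was much the lowest. Its log2 change was 3.83 ± 0.68 (14.2-fold; edgeR adjusted p = 0.0159), and 4.29 ± 0.49 (adjusted p = 0.000883) without the libraries with adrenal transcripts. The call was lost without WT replicate 1 or 2 (adjusted p = 0.0743 and 0.0612) and with sex as a term (3.66 ± 0.86, adjusted p = 0.135). By their Xist and Y-linked transcripts, all 3 digenic mice at P3 were female and 1 of 3 WT mice was, so that sex moved with genotype at this age.

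Gdf15 at P3 did not pass the test. It was at 9.41, 11.1 and 4.78 CPM in digenic kidneys and at 2.62, 3.37 and 7.39 CPM in WT kidneys. The third digenic and the third WT library crossed, so the groups overlapped. The log2 change was 0.90 ± 0.35 (edgeR adjusted p = 0.223), and without WT replicate 3 it was 1.47 (adjusted p = 0.0359). In all, 1 of 10 markers was called at P3, where 2.7% of genes were called. The remaining 8 had log2 changes between -0.20 (Clu) and 0.48 (Spp1), with a median over the 10 of 0.25, beside -0.01 over all genes.

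Interferon response genes moved in the same P3 libraries: 13 of 16 rose in digenic against WT, where 2.7% of all genes were called, and their summed level was 566, 1291 and 351 CPM in digenic replicates 1, 2 and 3 and 202 to 210 CPM in WT. Digenic replicate 2 was highest for these genes and for Havcr1, and replicate 3, the library with adrenal transcripts, was lowest for both. The 3 digenic libraries stood in the same order for Gdf15, Spp1, Vcam1 and Lgals3, but not for Lcn2, Clu, Cd44, Sox9 or Anxa2. The part of the interferon genes in the Havcr1 result was not tested. Sex entered only as a term in the fit given above, and it moved with genotype.

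By P12 more of the markers had risen in digenic kidneys. Of the 10 markers, 7 were called higher than in WT, where 23% of all genes were called, 12% higher. The median log2 change of the 10 was 1.03, beside -0.01 over all genes. DESeq2 called 8, and edgeR called 6 without digenic replicate 1 and 9 without digenic replicate 2. For 7 markers every digenic library lay above every WT library, and 17.7% of all genes were arranged that way.

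**Figure D2:**
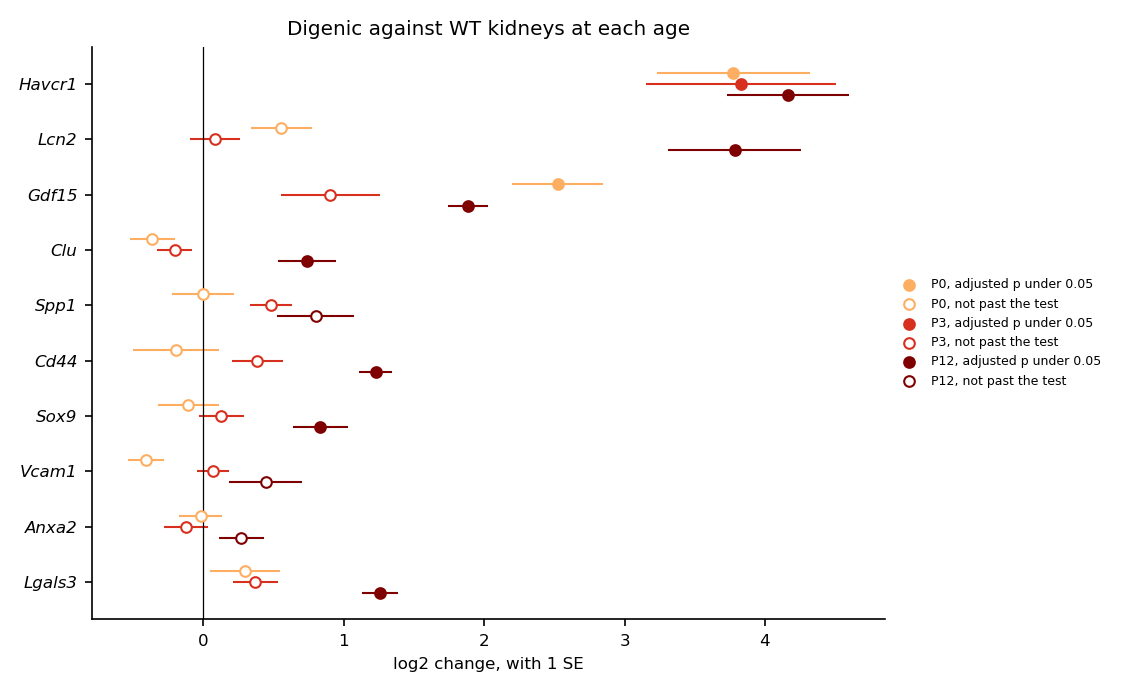
Log2 change of each marker in digenic against WT kidneys at P0, P3 and P12, with bars of 1 SE, where filled points have an edgeR adjusted p under 0.05. Havcr1 lies near 4 at all 3 ages, Gdf15 dips at P3, and 5 further markers become filled at P12.

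Of the secreted and shed markers, Havcr1 stood at 11.9, 11.9 and 7.41 CPM in P12 digenic kidneys and at 0.805, 0.551 and 0.367 CPM in WT. All 3 digenic libraries were high, and the call held without any 1 of the libraries. On the log2 scale the change was 4.17 ± 0.43 (17.96-fold; edgeR adjusted p = 9.76e-05).

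Lcn2, a lipocalin that binds bacterial iron carriers and is made by stressed distal tubules and by neutrophils, held 492, 147 and 135 CPM in digenic kidneys and 16.5, 19.0 and 20.5 CPM in WT. The first digenic replicate, the library headed as P3, stood far above the other digenic libraries. Even the lowest digenic library was far above every WT library. Its log2 change was 3.78 ± 0.48 (13.8-fold; edgeR adjusted p = 0.000760). Without that replicate it was 2.91 ± 0.10 (adjusted p = 3.12e-08).

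Gdf15 was at 40.1, 33.7 and 31.3 CPM in digenic kidneys and at 8.33, 10.7 and 9.40 CPM in WT. Both groups were tight and did not overlap. The log2 change was 1.88 ± 0.14 (3.69-fold; edgeR adjusted p = 1.09e-05).

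Clu, the secreted chaperone clusterin, was at 546, 316 and 316 CPM in digenic kidneys and at 183, 291 and 229.9 CPM in WT. The digenic libraries lay above WT, but replicates 2 and 3 only narrowly. On the log2 scale the change was 0.74 ± 0.20 (1.67-fold; edgeR adjusted p = 0.0229). Without digenic replicate 1 it was 0.43 and no longer called (adjusted p = 0.0557), and it was also lost without WT replicate 1 or WT replicate 3 (0.61 and 0.73 on the log2 scale, adjusted p = 0.0710 and 0.0714).

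Spp1 was at 4293, 1643 and 2325 CPM in digenic kidneys and at 1338, 1906 and 1487 CPM in WT. Digenic replicate 2 lay inside the WT range, and replicate 1, the library headed as P3, far above it. The log2 change of 0.80 ± 0.28 did not pass the test (edgeR adjusted p = 0.0565). It was 0.33 (adjusted p = 0.197) without replicate 1 and 1.08 (adjusted p = 0.00363) without replicate 2, so that leaving out 1 mouse changed the call.

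Of the surface molecules, Cd44 was at 24.8, 23.5 and 24.0 CPM in digenic kidneys and at 9.79, 11.8 and 9.21 CPM in WT. The digenic libraries were nearly equal and well clear of WT. Its log2 change was 1.23 ± 0.12 (2.34-fold; edgeR adjusted p = 4.30e-05).

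Vcam1, the adhesion molecule that inflamed vessels and failed-repair tubule cells display to leukocytes, was at 76.3, 29.96 and 68.1 CPM in digenic kidneys and at 38.0, 41.6 and 48.3 CPM in WT. Replicates 1 and 3 lay above every WT library and replicate 2 below every WT library. The log2 change of 0.44 ± 0.26 did not pass the test (edgeR adjusted p = 0.252). Without replicate 2 it was 0.77 ± 0.10 (adjusted p = 0.000177).

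Sox9 was at 4.72, 5.49 and 5.06 CPM in digenic kidneys and at 3.02, 2.79 and 2.76 CPM in WT. The groups did not overlap, and digenic kidneys at P12 were still far under every group at P0 and P3. The log2 change was 0.83 ± 0.20 (1.78-fold; edgeR adjusted p = 0.00926). All P0 and P3 libraries, of any genotype, held at least 13.3 CPM.

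Lgals3, the galactoside-binding lectin galectin-3 of macrophages and collecting duct, was at 157, 156 and 135 CPM in digenic kidneys and at 53.4, 78.0 and 55.3 CPM in WT. The groups were clearly apart. On the log2 scale the change was 1.26 ± 0.13 (2.40-fold; edgeR adjusted p = 6.58e-05). Anxa2 was at 229.6, 375 and 256 CPM in digenic kidneys and at 223, 271 and 218 CPM in WT. The groups overlapped, and the log2 change was 0.27 ± 0.16 (edgeR adjusted p = 0.250).

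Neither mutation alone brought a marker past the test at any age. Pkd1-RC/RC against WT gave 0 called markers of 10 at P0, P3 and P12 (0.0166%, 0.0443% and 0.267% of all genes were called), with 2, 0 and 2 below 0.05 before adjustment, and DESeq2 called 1, 0 and 1. Pkhd1-/- against WT also gave 0 at each age (0.0111%, 0.0166% and 0.0333% of genes), with 0, 1 and 1 below 0.05 before adjustment, and DESeq2 called 0 at each age.

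Havcr1 came closest in Pkd1-RC/RC kidneys. At P12 it was at 3.42, 1.09 and 3.37 CPM there, above every WT library, while Pkhd1-/- libraries held 0.419, 0.407 and 0.588 CPM. Replicate 2, the library whose header disagreed with its label, was the lowest of the 3. The log2 change against WT was 2.20 ± 0.41 (edgeR adjusted p = 0.0599), and without that replicate it was 2.56 (adjusted p = 0.00601). At P0 Pkd1-RC/RC libraries held 1.62, 1.35 and 3.80 CPM, also above every WT library, with a log2 change of 1.82 ± 0.52 (adjusted p = 0.421). DESeq2 called Havcr1 at P0 and P12. At P3 Pkd1-RC/RC libraries held 1.15 to 1.61 CPM, again above every WT library (0.237 to 1.13 CPM). The log2 change there was 0.83, called by neither edgeR nor DESeq2.

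Lgals3 in P12 Pkd1-RC/RC kidneys was at 80.9, 90.6 and 77.9 CPM, and its lowest library lay just under the highest WT library. Its log2 change was 0.42 ± 0.13 (edgeR adjusted p = 0.415). Lcn2 was at 24.0, 24.6 and 20.8 CPM there, above WT without overlap but by 0.31 ± 0.43 (adjusted p = 0.887). Vcam1 (28.4 to 32.8 CPM against 38.0 to 48.3 in WT) and Sox9 (1.84 to 2.54 against 2.76 to 3.02) lay below WT without overlap, at -0.45 ± 0.26 and -0.33 ± 0.20 on the log2 scale (edgeR adjusted p = 0.720 and 0.724). These Pkd1-RC/RC libraries also enter the comparison of digenic with Pkd1-RC/RC kidneys and the interaction for both genes. In Pkhd1-/- kidneys 1 of the 10 log2 changes at P12 was above 0, that of Spp1 at 0.01.

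Digenic kidneys at P12 were also set against each mutation alone. Against Pkd1-RC/RC, 9 of 10 markers were called higher, where 19.5% of genes were called and 10.3% higher. Havcr1 differed by 1.97 ± 0.38, Lcn2 by 3.47 ± 0.47, Gdf15 by 1.78 ± 0.14, Cd44 by 1.09 ± 0.12, Sox9 by 1.16 ± 0.20 and Lgals3 by 0.84 ± 0.13 on the log2 scale. Clu, Spp1 and Vcam1 were called at adjusted p-values of 0.0412, 0.0359 and 0.0377 (edgeR), and all 3 were lost without digenic replicate 1 (log2 0.35, 0.46 and 0.65), which left 6. The same 3 were also lost when Pkd1-RC/RC replicate 1, 2 or 3 was left out, and Vcam1 without digenic replicate 3 (0.35 to 0.81 for Clu, 0.42 to 1.21 for Spp1 and 0.65 to 1.22 for Vcam1 over all alternatives). With the replicate number as a block 6 were called. The 3 calls were also lost with sex as a term (0.65, 0.92 and 0.85). By their sex-linked transcripts, 0 of 3 Pkd1-RC/RC mice and 1 of 3 digenic mice at P12 were female. Without digenic replicate 1 the Lcn2 difference was 2.60 and still called. Anxa2 was not called (0.30 ± 0.16, adjusted p = 0.212).

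Against Pkhd1-/-, 7 of 10 were called higher, where 28.2% of genes were called and 15.5% higher. The 7 were Havcr1, Lcn2, Gdf15, Clu, Cd44, Sox9 and Lgals3, with log2 differences of 4.46, 3.84, 2.24, 0.83, 1.29, 1.06 and 1.44. Without digenic replicate 1 the Lcn2 difference was 2.96 and still called. Spp1 fell just short (0.79 ± 0.28, edgeR adjusted p = 0.0504) and was called when digenic replicate 2 was left out. At P0, Gdf15 exceeded Pkd1-RC/RC by 2.34 ± 0.32 (adjusted p = 0.0186), the 1 marker called there (0.0388% of genes), a call that did not hold when either of the first and second Pkd1-RC/RC libraries, or digenic replicate 2 or 3, was left out (2.09 to 2.94 over all alternatives). Against Pkhd1-/- at P0, Havcr1 (2.91 ± 0.52, adjusted p = 0.0431) and Gdf15 (3.20 ± 0.34, adjusted p = 0.00179) were called (0.244% of genes), and Havcr1 was lost without Pkhd1-/- replicate 1 or 2 or digenic replicate 2 or 3 (2.28 to 3.19).

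At P3, digenic against Pkd1-RC/RC gave 0 called markers (0.46% of genes), with 4 below 0.05 before adjustment, and DESeq2 called 2. Havcr1 differed by 3.00 ± 0.65 there (edgeR adjusted p = 0.0800), and by 3.45 (adjusted p = 0.00157) without digenic replicate 3. Against Pkhd1-/- at P3 Havcr1 alone was called (3.95 ± 0.69, adjusted p = 0.0123, 3.49% of genes), and it was lost without Pkhd1-/- replicate 1 or 3 and with sex as a term (3.18 to 4.41 over all alternatives). By their sex-linked transcripts, 0 of 3 Pkhd1-/- mice and 3 of 3 digenic mice at P3 were female. Sex and genotype therefore could not be told apart between these groups. The P3 comparisons with each single mutant share the digenic libraries.

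**Figure D3:**
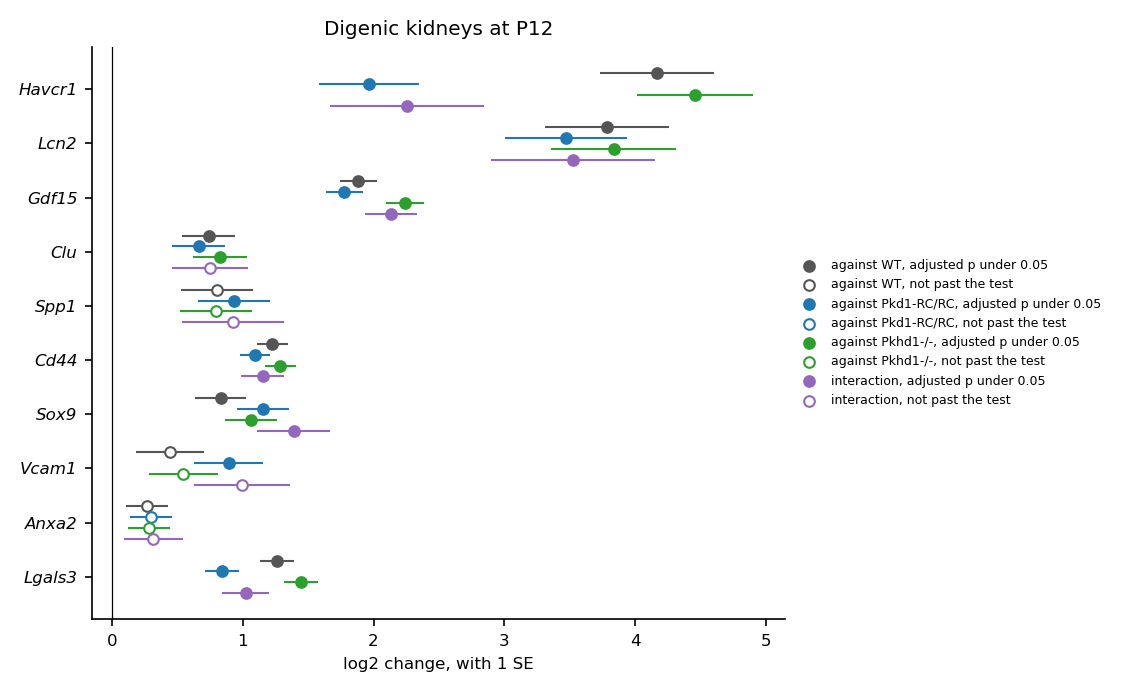
Log2 difference of each marker in P12 digenic kidneys against WT, Pkd1-RC/RC and Pkhd1-/- kidneys, and the interaction, with bars of 1 SE, where filled points have an edgeR adjusted p under 0.05. Havcr1 lies nearer to 0 against Pkd1-RC/RC than against WT or Pkhd1-/-, and Anxa2 is open in all 4.

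Whether the mutations together gave more than their separate log2 effects added was tested as an interaction (the digenic change from WT less the sum of both single-mutant changes). At P12 it was above 0 and called for 6 of 10 markers, where 8.57% of genes were called and 5.38% were called above 0. The 6 were Lcn2 (3.52 ± 0.63), Havcr1 (2.26 ± 0.59), Gdf15 (2.13 ± 0.20), Sox9 (1.39 ± 0.28), Cd44 (1.15 ± 0.17) and Lgals3 (1.02 ± 0.18). Havcr1 was the least secure (edgeR adjusted p = 0.0369) and was lost without WT replicate 1 or 2, Pkhd1-/- replicate 1, 2 or 3 or digenic replicate 1 (1.79 to 2.50 over all alternatives), and in the fit of all 36 libraries. For Lcn2 the interaction was 2.65 without digenic replicate 1, and still called. Vcam1, Spp1 and Clu had interactions of 0.99, 0.93 and 0.75 that did not pass the test. At P0 and P3 the interaction was called for 0 markers (0.00554% and 0% of genes), with 3 and 4 below 0.05 before adjustment, and DESeq2 called 1 at each age. The largest at P0 was Gdf15 at 3.02 ± 0.45 (adjusted p = 0.125).

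The digenic effect was then compared between ages in a fit of all 36 libraries. From P0 to P12 it grew for 6 of 10 markers, where it changed for 8.79% of genes and grew for 5.22%. Lcn2 grew by 3.24 ± 0.42, Cd44 by 1.43 ± 0.33, Clu by 1.11 ± 0.25, Lgals3 by 0.97 ± 0.29, Sox9 by 0.95 ± 0.28 and Vcam1 by 0.86 ± 0.26 on the log2 scale. Without digenic replicate 1 of P12 the Lcn2 value was 2.36, and still called. The calls for Sox9, Vcam1 and Lgals3, with adjusted p-values of 0.0330, 0.0331 and 0.0315 (edgeR), each rested on many of the 12 libraries. Sox9 (0.76 to 1.20 over all alternatives) was lost without WT replicate 1 or 3 or digenic replicate 1 or 2 of P0, or WT or digenic replicate 2 or 3 of P12. Vcam1 (0.61 to 1.17) was lost without WT replicate 3 or digenic replicate 1 or 2 of P0, or WT replicate 1 or 2 or digenic replicate 1 or 3 of P12. Lgals3 (0.80 to 1.17) was lost without WT or digenic replicate 2 of P0, or WT replicate 1 or 3 or digenic replicate 1 or 2 of P12. Without the 2 libraries whose header disagreed, 4 of the 6 calls were left, with Vcam1 and Lgals3 lost. For Vcam1 the digenic change from WT was -0.41 at P0 and 0.44 at P12, and edgeR called neither. That of Clu was -0.36 at P0, not called, and 0.74 at P12. Havcr1, called at every age, had a change of 0.40 ± 0.82, and Gdf15 one of -0.63 ± 0.44, neither called. From P3 to P12 the effect grew for Lcn2 (3.69 ± 0.43, or 2.82 without the same library) and Clu (0.93 ± 0.25), 2 of 10 markers where 2.33% of genes changed, and Clu was lost without WT replicate 1 or 2 or any digenic replicate of P3, or WT replicate 1 or 3 or digenic replicate 1 of P12 (0.62 to 1.12).

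The 3 digenic mice at P12 did not rank alike for all markers. Replicate 1 was highest for Lcn2, Clu, Spp1 and Vcam1, at 4.72, 1.24, 1.46 and 0.85 above the WT mean on the log2 scale. It was also highest for Gdf15 (2.09) and, by less, for Cd44 and Lgals3. Replicate 2 was lowest for Spp1 and Vcam1, at 0.08 and -0.50, and highest for Anxa2 at 0.67. Cd44 (1.20 to 1.27), Sox9 (0.72 to 0.94) and Lgals3 (1.14 to 1.36) varied little.

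Leukocyte transcripts varied over the same mice. The summed level of 18 macrophage genes was 1214, 497 and 1214 CPM in digenic replicates 1, 2 and 3 and 250.5 to 292 CPM in WT. That of 8 neutrophil genes was 75.4, 14.4 and 112 CPM against 3.82 to 8.74 CPM. Replicate 2, lowest in Spp1 and Vcam1, was also lowest in both sums, whereas Cd44, Gdf15 and Lgals3 in that library were close to the other 2, and Lcn2 in replicate 2 (147 CPM) was above replicate 3 (135 CPM), which had the most neutrophil transcript. No gene of either list was at 0 in any group. Macrophage genes rose in 17 of 18 and fell in 1 (Mertk, named after its value was seen) in digenic against WT at P12, with a median log2 change of 2.14, and neutrophil genes rose in 8 of 8 with a median of 4.03, where 12% of all genes rose. Their part in the marker results was not tested.

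**Figure D4:**
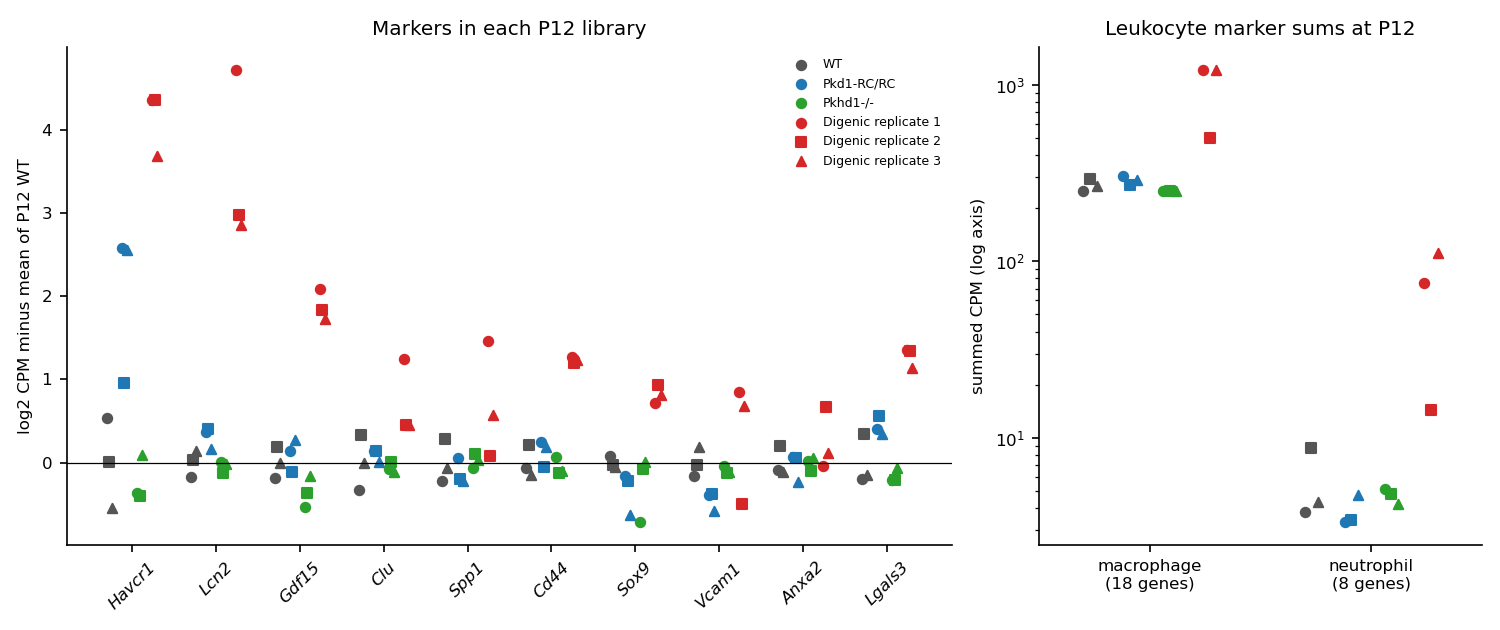
Left, log2 CPM of each marker in each P12 library minus the mean of the P12 WT libraries; right, summed CPM of macrophage and neutrophil genes in the same libraries on a log axis, with the marker shape giving the replicate. Digenic replicate 2 (square) is low in Spp1, Vcam1 and both leukocyte sums, and not in Cd44 or Lgals3.

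Other genes of tubular injury and failed repair were counted in the same way. Of 39 tested, 1 rose at P0 (Sema3c), 5 rose at P3, and at P12 25 rose and 2 fell (Itgb6 and Tnfaip2, named after their values were seen), with median log2 changes of 0.36, 0.30 and 0.68. Over all genes 0.671%, 2.7% and 23% were called at the 3 ages. At P12 Krt18, a keratin of simple epithelia, rose by 1.52 ± 0.15 and the transcription factor Myc by 1.22 ± 0.12. The median change of the 39 at P12 was 0.06 in Pkd1-RC/RC and -0.11 in Pkhd1-/- kidneys. The interaction at P12 was called above 0 for 16 of the 39, where 5.38% of all genes were. The list was drawn up with earlier results of these kidneys known.

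Among 18 ligands, receptors and partners of the markers, 4 rose and 2 fell at P12, where 12% of all genes rose and 11% fell. Timd2, a relative of Havcr1, rose by 2.18 ± 0.45, Lgals3bp, which binds galectin-3, by 1.82 ± 0.36, and the lipoprotein receptor Lrp8, a clusterin receptor, by 1.14 ± 0.28. Itgb6, an integrin chain, fell by 0.51, and Lrp2 (megalin), which takes up Lcn2 protein, fell by 0.51 too. Sox8, a relative of Sox9, rose by 0.98 (Lrp2 and Sox8 were named after their values were seen). The median over the 18 was 0.05, close to that of all genes.

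Genes of nephron segments were counted at P12, where 23% of all genes were called, 12% higher and 11% lower. Proximal tubule genes fell in 12 of 25, with Slc5a2 (glucose reabsorption) falling by 3.05 ± 0.28, Miox by 1.65 ± 0.17 and Slc34a1 (phosphate uptake) by 0.97 ± 0.11. Their summed level was 10725 to 12151 CPM in digenic and 17237 to 21815 CPM in WT. Loop of Henle genes fell in 8 of 9, among them Egf by 3.24 ± 0.31 and Umod by 0.78 ± 0.09. Genes of collecting duct principal cells rose in 7 of 8, with Aqp3 at 1.59 ± 0.19, and endothelial genes fell in 10 of 13. At P0, Miox (-3.95) and Kap (-3.60) were the 2 proximal tubule genes that fell, where 0.205% of all genes did. At P3, 5 proximal tubule genes rose, among them Slc7a13 by 1.07, Slc27a2 by 0.89 and Ggt1 by 0.55, and 2 fell, among them Miox by 0.88, where 2.7% of all genes were called. The part of a changed share of tubule segments in the marker results was not tested.

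**Figure D5:**
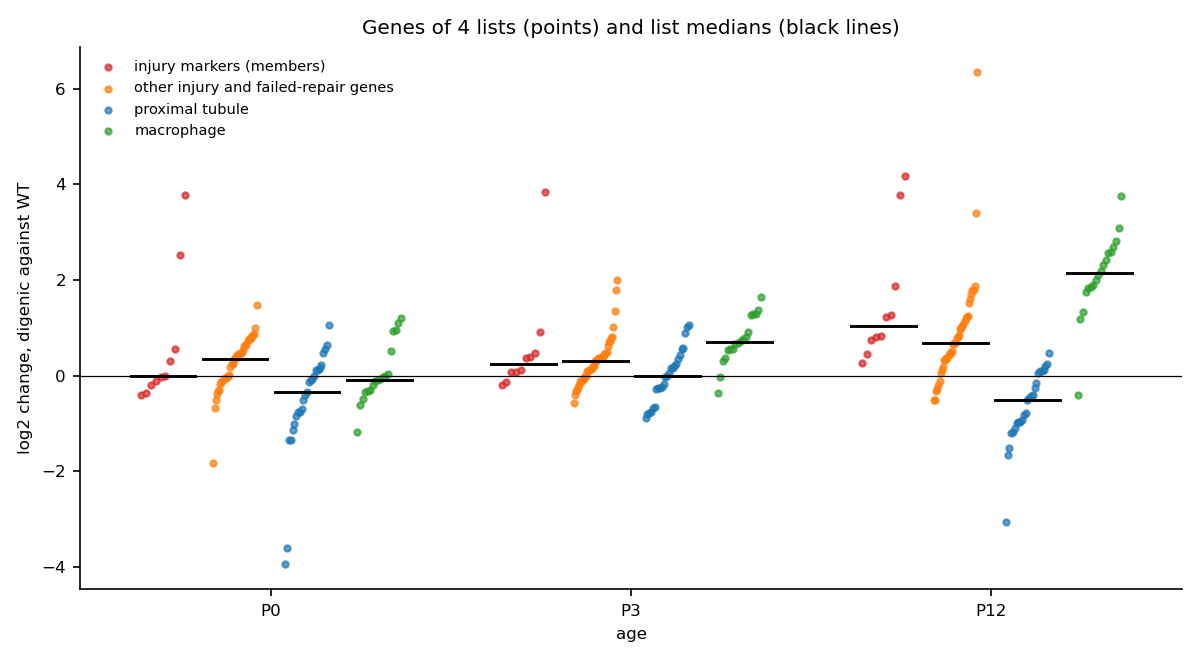
Log2 change of single genes (points) in digenic against WT kidneys at each age for the 10 markers, other injury genes, proximal tubule genes and macrophage genes, with black lines at the list medians. The median of the markers moves from -0.01 at P0 to 1.03 at P12 while that of the proximal tubule genes moves to -0.51.

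Genes of signalling responses linked to the markers were counted at P12 as well. NF-kB targets rose in 6 of 8 (among them Nfkb2 by 0.70 and Icam1 by 1.20), p53 targets in 3 of 12 and integrated stress response genes in 2 of 13 with 1 lower, the last a response known to induce Gdf15. Of all genes 12% rose and 11% fell in that comparison. The stress response count is near that share, and the p53 count of 3 of 12 is above it but rests on few genes. The median log2 changes of the 3 lists were 0.75, 0.08 and 0.10 at P12, and 0.13, 0.09 and 0.01 at P0, where Gdf15 and Havcr1 were the markers called.

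For each marker the genes with the most similar pattern, at most 2, were found from the Pearson correlation over the 36 libraries of log2 CPM minus the WT mean of the same age. The libraries share genotype groups, so the values are descriptive. Havcr1 was most like Oplah (r = 0.92) and F3 (0.89), Lcn2 like Pde3b (0.92) and Slc38a4 (0.92), and Lgals3 like Mapk13 (0.92). Gdf15 paired with Fgd3 (0.87) and Itga3 (0.86), Anxa2 with S100a10 (0.88), its protein partner, and Eif4ebp1 (0.86), and Spp1 with P2rx4 (0.88) and Tmem176a (0.87). Cd44 was most like C5ar1 (0.85) and Hap1 (0.82), Clu like Lpcat2 (0.84) and Rtcb (0.83), Sox9 like Etv5 (0.78) and Slc27a6 (0.74), and Vcam1 like F10 (0.75) and C1rb (0.73).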

How the data were processed

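RNA from whole kidneys was sequenced as 150-base paired-end reads on a HiSeq4000, per the labels' protocols. Per the submitters' processing notes, reads were handled with MAP-RSeq 2.1.0, TopHat2 and Bowtie on build mm10 and counted with featureCounts; no source used here gives the strand setting. The authors deposited raw counts per gene, used here without change, with log2 fold changes and gene lengths. For the 10 markers, 90 of 90 log2 fold changes in the authors' deposited table lay within 0.1 of those computed here. Another 36 columns of normalized values were not used.

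Counts were tested with edgeR 4.0.16 (TMM, filterByExpr, robust quasi-likelihood F test) in R 4.3.3, with 12 libraries of an age per fit and a term per genotype, and with 36 libraries for comparisons across ages. An SE is the log2 change divided by the square root of F. P-values were Benjamini-Hochberg adjusted over all tested genes, and 0.05 was the threshold. All 10 markers passed the filter on low counts at each age. Levels are CPM scaled over 36 libraries, log2 levels were taken with a prior count of 2, and RPKM divides CPM by the deposited length. The fit was first tested on simulated data.

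The members and gene lists were chosen with earlier results of these data known. Of each list, up to 4 called genes with the smallest adjusted p in digenic against WT could be named, and for each marker the 2 genes most like it. Some genes that this rule selects are not reported here. Gene positions come from GENCODE M21 and promoters from RefSeq. Alternatives were DESeq2 1.42.0, RLE size factors, no filter, other sets of libraries, a replicate block, sex as a term and each library left out.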

Additional observations from a re-analysis of the deposited data

Results flagged for a closer look

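Marker results whose size differed between genotypes or ages in a direct test are collected here (edgeR quasi-likelihood, adjusted p under 0.05, 3 libraries per group). At P12 the effect of the Pkd1-RC/RC mutation differed between kidneys with and without the Pkhd1-/- mutation, on the log2 scale, by 2.26 for Havcr1, 3.52 for Lcn2, 2.13 for Gdf15, 1.15 for Cd44, 1.39 for Sox9 and 1.02 for Lgals3. The digenic effect differed between P12 and P0 by 3.24 for Lcn2, 1.11 for Clu, 1.43 for Cd44, 0.95 for Sox9, 0.86 for Vcam1 and 0.97 for Lgals3, and between P12 and P3 by 3.69 for Lcn2 and 0.93 for Clu. The 2 age comparisons share the P12 libraries, and both share digenic and WT libraries with the interaction. Several of these calls were lost when single libraries were left out in turn. Among them were the Havcr1 interaction, the comparison with P0 for Sox9, Vcam1 and Lgals3, and the comparison with P3 for Clu.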

How the results depend on the processing

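Of 10 markers, the number called moved by more than 1.5 times in these cases. With DESeq2 it was 1 for Pkd1-RC/RC against WT at P0 and at P12, 3 and 2 for digenic against Pkd1-RC/RC at P0 and P3, 2 against WT and 4 against Pkhd1-/- at P3, and 1 for the interaction at P0 and at P3. In 1 fit of all 36 libraries it was 1 for the interaction at P0, and 1 and 2 for digenic against Pkd1-RC/RC and Pkhd1-/- at P3. Without the libraries with adrenal transcripts the P3 counts against WT, Pkd1-RC/RC and Pkhd1-/- were 2, 1 and 2, and with sex as a term they were 0 against WT and 0 against Pkhd1-/-. Without the libraries whose header differs from the label, a setting chosen after seeing the data, Pkd1-RC/RC against WT at P12 gave 1. The change of the digenic effect from P3 to P12 was called for 1 marker in each of these last 3 settings and with only the compared groups fitted. RLE size factors and no filter on low counts moved no count by that much.

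Same-numbered libraries did not deviate together (median correlation -0.15, -0.07 and -0.02 at P0, P3 and P12, with 6, 4 and 4 of 18 pairs over 0.1), so the numbers were not taken to pair mice. With the replicate block, digenic against Pkhd1-/- at P0 gave 1, digenic against WT at P3 gave 0 and the P3 to P12 change gave 1.

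With 1 library left out, digenic against WT gave 1 to 2 markers at P0, 0 to 2 at P3 and 6 to 9 at P12; against Pkd1-RC/RC 0 to 1, 0 to 1 and 6 to 9; against Pkhd1-/- 1 to 2, 0 to 3 and 7 to 9; the interaction 0 to 1, 0 to 1 and 5 to 8; Pkd1-RC/RC against WT at P12 0 to 1; the effect's change 3 to 6 from P0 and 1 to 3 from P3. Among the marker values recomputed (every marker in digenic against WT, and elsewhere those called under any setting), the sign changed in uncalled values of digenic against WT. With 1 library left out, values at P0 ran from -0.23 to 0.27 for Spp1, -0.38 to 0.036 for Cd44, -0.36 to 0.057 for Sox9 and -0.12 to 0.028 for Anxa2, and at P3 from -0.11 to 0.19 for Lcn2, -0.0056 to 0.29 for Sox9 and -0.25 to 0.11 for Anxa2. With sex as a term, Sox9 at P0 was 0.039 and Vcam1 at P3 was -0.056. The causes were not tested. Depth limits Havcr1 in WT, whose lowest library held 15 counts.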
